A study of Mus musculus with 6 samples.

Results

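The 51 genes described here encode the matrix metalloproteinases (MMPs), the ADAMTS proteases, the ADAMTS-like proteins and the tissue inhibitors of metalloproteinases (TIMPs). They were picked out by a rule on gene symbols from the 35275 genes of the deposited count table, and comprised 23 MMP, 19 ADAMTS, 5 ADAMTS-like and 4 TIMP genes. The family was chosen with earlier results of these data known. RNA was sequenced from NIH3T3 cells, an established line of mouse embryo fibroblasts. Per the labels, 3 libraries came from NIH3T3 cells stably transfected with a pIRES plasmid carrying HA-tagged NgBR and kept under G418, and 3 came from wild-type NIH3T3 cells with no listed treatment. NgBR, the Nogo-B receptor encoded by Nus1, is a subunit of the enzyme that makes dolichol precursors. Both groups grew in DMEM with penicillin, streptomycin and 10% calf serum. The wild-type group carried no empty vector and no G418 selection by its labels, so that the transgene, the vector and the selection cannot be told apart. Whether the transfected cells were a single clone or a pool, and whether replicates came from separate cultures, was not stated in the labels, so that the p-values rest on differences among libraries of a group that may be technical repeats.

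MMPs are zinc-dependent enzymes that cleave collagens, gelatins and other matrix proteins, and most are secreted or membrane-anchored as inactive precursors. ADAMTS proteases are secreted and carry thrombospondin repeats, through which they bind matrix, and their best-known substrates are the large proteoglycans aggrecan and versican and the ends of procollagen chains. ADAMTS-like proteins share those repeats but lack the protease domain, and TIMPs bind the active site of the enzymes and block it, with TIMP3 also acting on ADAMTS proteases.

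The libraries held 7369961, 10358381 and 10082223 counts in the NgBR-labelled group and 35511769, 29515072 and 32196873 in wild type, a mean depth 3.5-fold higher in wild type. Nus1 was 183, 185 and 165 CPM (counts scaled to a common library total with TMM factors) in the libraries labelled NgBR overexpression and 212, 187 and 233 CPM in wild type. It was not higher in the labelled group (log2 fold change -0.24, adjusted p = 0.786 after Benjamini-Hochberg correction, edgeR's quasi-likelihood test), so the label was not borne out by the gene's own count, and every direction below compares the libraries labelled NgBR overexpression with those labelled wild type. The labels do not name the species of the transfected coding sequence. Fibroblast markers were abundant in both groups: all 10 listed genes were tested, and their summed level was 21940 to 33150 CPM in NgBR-labelled libraries and 21150 to 25210 CPM in wild type. None of them was called by edgeR or by DESeq2, and 0 had an unadjusted p under 0.05. Of the other markers, the epithelial list summed to 0.791 to 2.38 CPM in NgBR-labelled libraries and 0.237 to 0.773 CPM in wild type, with Epcam and Krt18 at 0. The endothelial list summed to 0.841 to 2.10 CPM in NgBR-labelled libraries and 0.642 to 0.944 CPM in wild type, and the leukocyte list to 3.23 to 4.75 CPM in NgBR-labelled libraries and 2.20 to 5.05 CPM in wild type. The skeletal muscle list, with Myod1 and Myog at 0, summed to 2.01 to 3.09 CPM in NgBR-labelled libraries and 0.845 to 1.08 CPM in wild type. The cartilage list summed to 148.6 to 173.7 CPM in NgBR-labelled libraries and 97.9 to 133.2 CPM in wild type, and Sox9 alone was at 148.5 to 173.6 CPM in NgBR-labelled libraries and 97.8 to 133.0 CPM in wild type. The part of these lists in the results was not tested. These are bulk samples, in which fewer cells expressing a gene and less RNA per cell cannot be told apart.

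About as many genes of the family fell below the filter as passed it. Of the 51 genes, 24 passed the filter on low counts and were tested, among 12651 tested genes in the table. The other 27 included 11 with no count in any of the 6 libraries. Across all 35275 genes, 22624 were not tested and 14239 had no count. Those 11 were Mmp1a, Mmp1b, Mmp7, Mmp12, Mmp20, Mmp25, Mmp27, Adamts3, Adamts17, Adamts18 and Adamts19. A total of 0 allows up to 0.108 CPM over the NgBR-labelled group and 0.0307 CPM over wild type (3 counts over each group's summed depth, counting error only). Tested were 8 of 23 MMP genes, 10 of 19 ADAMTS genes, 3 of 5 ADAMTS-like genes and 3 of 4 TIMP genes.

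Of the 11 genes with no count, 6 lie at a single locus. The MMP genes Mmp13, Mmp12, Mmp1b, Mmp3, Mmp1a, Mmp10, Mmp8, Mmp27, Mmp20 and Mmp7 lie together on mouse chromosome 9, at chr9:7272514-7699585 in the GRCm38 (mm10) build, a stretch of 427072 bases that holds the collagenases, most stromelysins and matrilysin. Of these 10 genes, 6 had no count at all, 1 (Mmp3, stromelysin) was tested, and all 10 together collected 21 counts in the NgBR-labelled libraries and 86 in wild type. Mmp3 was at 0.280, 0.297 and 0.764 CPM in NgBR-labelled libraries and 0.858, 0.440 and 0.933 CPM in wild type, and the ranges overlapped. The abundant MMP genes, Mmp2 and Mmp14, lie on other chromosomes.

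The promoters of the clustered genes differed from those of the other genes. RefSeq's promoter table (GRCm38.p6) matched 36 of the 51 genes, with 39 promoters, and the 250 bases before each start were searched on both strands for 4 short motifs. These were the AP-1 site TGANTCA, the GC box GGGCGG, the TATA box TATAAA and the hypoxia-response core ACGTG, and no motif contains another. The 12 promoters of the 10 clustered genes held an AP-1 site in 8 cases, a TATA box in 7, the hypoxia core in 1 and a GC box in 0. The 27 promoters of the 26 other matched genes held an AP-1 site in 0 cases, a TATA box in 3, the hypoxia core in 6 and a GC box in 20. Among all 32851 promoters of the table, 6.75% held the AP-1 site, 32.7% the GC box, 12.4% the TATA box and 16.6% the hypoxia core. Base composition separated the sets as well, with 37.2% to 53.2% G and C in the clustered promoters and 53.6% to 80.0% in the others. Only 1 of the 10 clustered genes was tested, so a split by cluster and a split by counts cannot be told apart. Outside the cluster, Mmp25, Adamts3 and Adamts18, with no count, held a GC box and no AP-1 site, and Adamts17, also with no count, held neither. Of the matched genes outside the cluster with few counts, Mmp15, Mmp24, Adamts20, Adamtsl2 and Adamtsl3 held a GC box. Mmp21, Mmp23, Adamts13 and Timp4, also with few counts, held none, and neither did the tested Adamts12. A match describes letters in this window and was not tested as a binding site. The promoters of 5 genes are shown, 5′ to 3′ on the gene's own strand and ending just before the start, with every match to the AP-1, GC box and TATA motifs in capitals. Mmp13 (plus strand, chr9:7272264-7272513) and Mmp3 (plus strand, chr9:7445572-7445821) are clustered genes with both an AP-1 site and a TATA box. The promoters of Mmp8 and Mmp27, also clustered, held none of the 4 motifs and are not shown. Adamts9 (minus strand, chr6:92943535-92943784), Adamts1 (minus strand, chr16:85803114-85803363) and Adamts2 (plus strand, chr11:50601835-50602084) are genes whose values are given below.
Mmp13: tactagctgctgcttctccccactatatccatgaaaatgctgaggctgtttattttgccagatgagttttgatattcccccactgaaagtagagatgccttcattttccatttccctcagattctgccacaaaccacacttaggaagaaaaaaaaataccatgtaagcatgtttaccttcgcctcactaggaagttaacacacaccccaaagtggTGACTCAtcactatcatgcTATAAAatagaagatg
Mmp3: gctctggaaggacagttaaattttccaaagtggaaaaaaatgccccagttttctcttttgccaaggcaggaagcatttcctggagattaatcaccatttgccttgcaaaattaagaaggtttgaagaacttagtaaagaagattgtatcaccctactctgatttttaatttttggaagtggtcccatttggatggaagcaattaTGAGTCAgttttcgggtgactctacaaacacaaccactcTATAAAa
Adamts9: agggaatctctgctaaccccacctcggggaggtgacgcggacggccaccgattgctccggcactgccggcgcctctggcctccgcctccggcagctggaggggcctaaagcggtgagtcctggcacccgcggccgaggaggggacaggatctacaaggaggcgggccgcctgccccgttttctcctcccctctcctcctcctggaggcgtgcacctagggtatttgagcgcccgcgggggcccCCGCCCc
Adamts1: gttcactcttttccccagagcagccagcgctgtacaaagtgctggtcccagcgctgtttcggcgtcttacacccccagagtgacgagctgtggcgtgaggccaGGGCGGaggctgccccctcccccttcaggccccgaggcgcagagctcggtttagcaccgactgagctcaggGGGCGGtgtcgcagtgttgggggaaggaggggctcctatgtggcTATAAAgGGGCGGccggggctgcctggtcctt
Adamts2: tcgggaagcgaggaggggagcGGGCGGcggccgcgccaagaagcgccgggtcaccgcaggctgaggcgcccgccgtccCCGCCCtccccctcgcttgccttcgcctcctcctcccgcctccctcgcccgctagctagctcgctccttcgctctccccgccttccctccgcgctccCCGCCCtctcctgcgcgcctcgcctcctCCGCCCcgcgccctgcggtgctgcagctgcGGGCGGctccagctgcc
The Mmp13 promoter held an AP-1 site 35 to 29 bases and a TATA box 16 to 11 bases before the start, and the Mmp3 promoter an AP-1 site 46 to 40 bases and a TATA box 7 to 2 bases before it. The Adamts9 promoter held a single GC box, 7 to 2 bases before the start. The Adamts1 promoter held 3 GC boxes and a TATA box 32 to 27 bases before the start, and the Adamts2 promoter 5 GC boxes. Mmp3 was the only tested gene of the family with a promoter in the table and an AP-1 match: of the 14 promoters of tested genes, 12 held a GC box and 2 a TATA box.

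A single gene of the family passed the test. Of the 24 tested genes, 1 was called lower in the NgBR-labelled libraries and 0 were called higher (edgeR's quasi-likelihood test, adjusted p under 0.05 by Benjamini-Hochberg over all tested genes), beside 1.35% called lower, 2.04% called higher and 3.39% called in all across the 12651 genes. At an unadjusted p under 0.05 in edgeR's test, 5 were lower and 2 higher, which is 29.2% of the 24 against 11.4% of all tested genes. DESeq2, which tested 33 of the 51 genes, called 3 lower and 0 higher. Of its 15513 genes, 1.70%, 2.91% and 4.61% were called lower, higher and in all. Limma-voom called 1 of the 24 lower and 0 higher. The log2 fold change was negative in 17 of 24 genes, against 51.3% of all tested genes, with a median of -0.40 over the 24 and -0.01 over all tested genes. By class the median was -0.44 for the 8 MMP genes, -0.32 for the 10 ADAMTS genes, 0.27 for the 3 ADAMTS-like genes and -0.25 for the 3 TIMP genes. The groups were separate in CPM for 7 of the 24 genes, 5 lower and 2 higher, beside 18.6% of all tested genes, 9.37% lower and 9.21% higher.

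**Figure D1:**
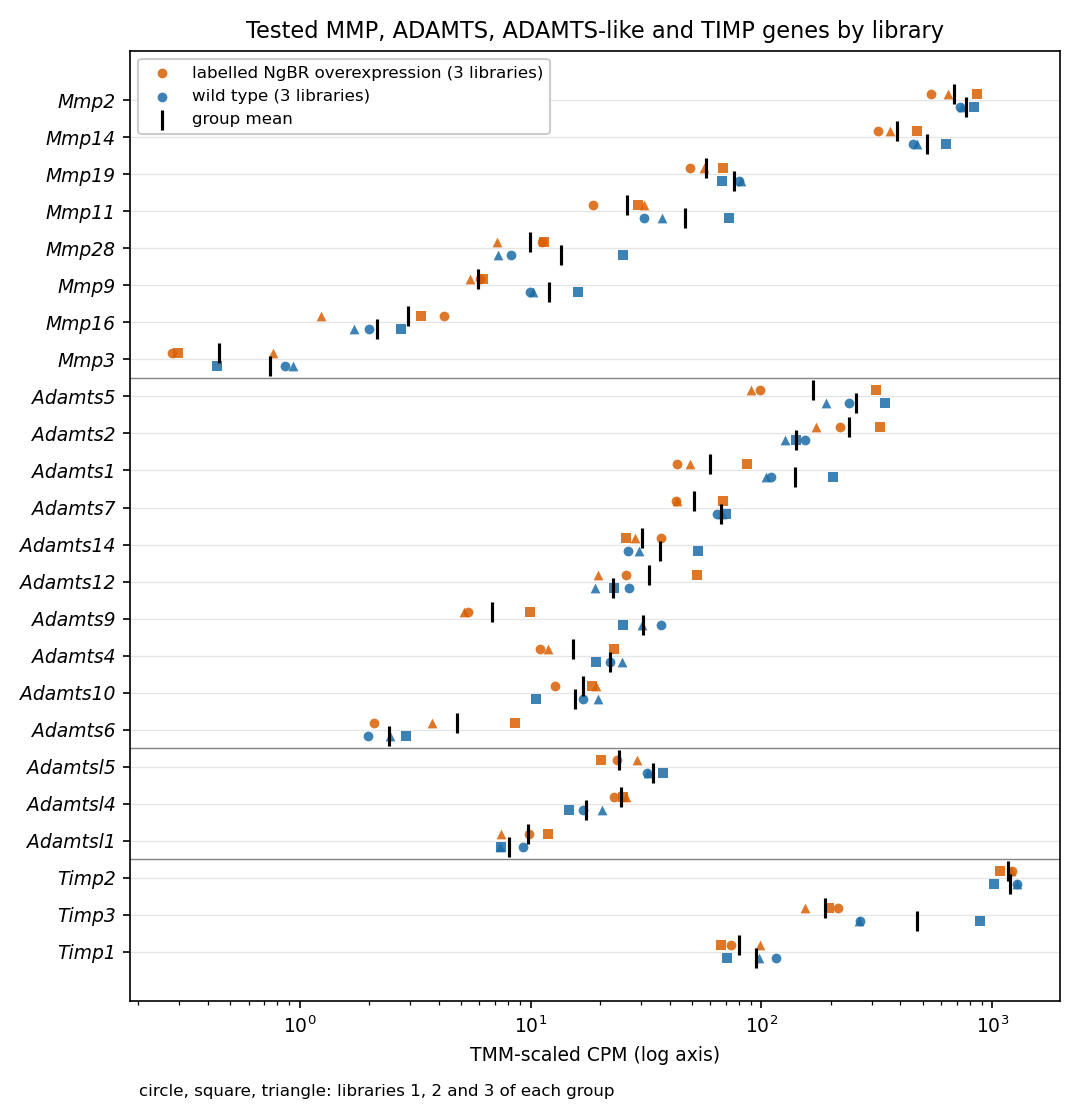
TMM-scaled CPM on a log axis for the 24 tested genes, grouped as MMP, ADAMTS, ADAMTS-like and TIMP genes and ordered by mean level. Circles, squares and triangles are libraries 1, 2 and 3, with NgBR-labelled libraries in orange above wild type in blue, and black bars are group means. Adamts9 is the gene whose 3 orange points (5.16 to 9.98 CPM) lie farthest below the blue ones (25.2 to 36.6 CPM).

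Adamts9 fell in the libraries labelled NgBR overexpression. The gene (ENSMUSG00000030022, chr6:92772699-92943492 on the minus strand of GRCm38) encodes a secreted protease that cleaves versican and aggrecan and is among the most conserved members of its family. It had 38, 101 and 54 counts in NgBR-labelled libraries and 1280, 744 and 1006 counts in wild type. Scaled for depth, these were 5.33, 9.98 and 5.16 CPM in NgBR-labelled libraries and 36.6, 25.2 and 30.3 CPM in wild type. The highest NgBR-labelled library stayed well under the lowest wild-type library. The means were 6.82 ± 2.74 CPM in NgBR-labelled libraries and 30.7 ± 5.75 CPM in wild type (SD, n = 3 each), 4.50-fold lower. On the log2 scale the gene fell by 2.16 with SE 0.32 (95% interval -2.88 to -1.44), at an adjusted p of 0.00616 in edgeR's quasi-likelihood test. Over the other settings tried the log2 fold change lay between -2.68 and -1.99, with adjusted p between 5.2e-08 and 0.051. The call was lost in 1 of the 6 fits that left out a library: without NgBR-labelled library 1 the log2 fold change was -2.03 and the adjusted p 0.051 in edgeR's test. Exons of 2 genes on the opposite strand overlap those of Adamts9, and no source used here states the strand setting of the counting. A730049H05Rik shares 9.18% of the Adamts9 exonic length and had 1, 6 and 5 counts in NgBR-labelled libraries and 35, 23 and 28 in wild type, and Gm15737 had no count.

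**Figure D2:**
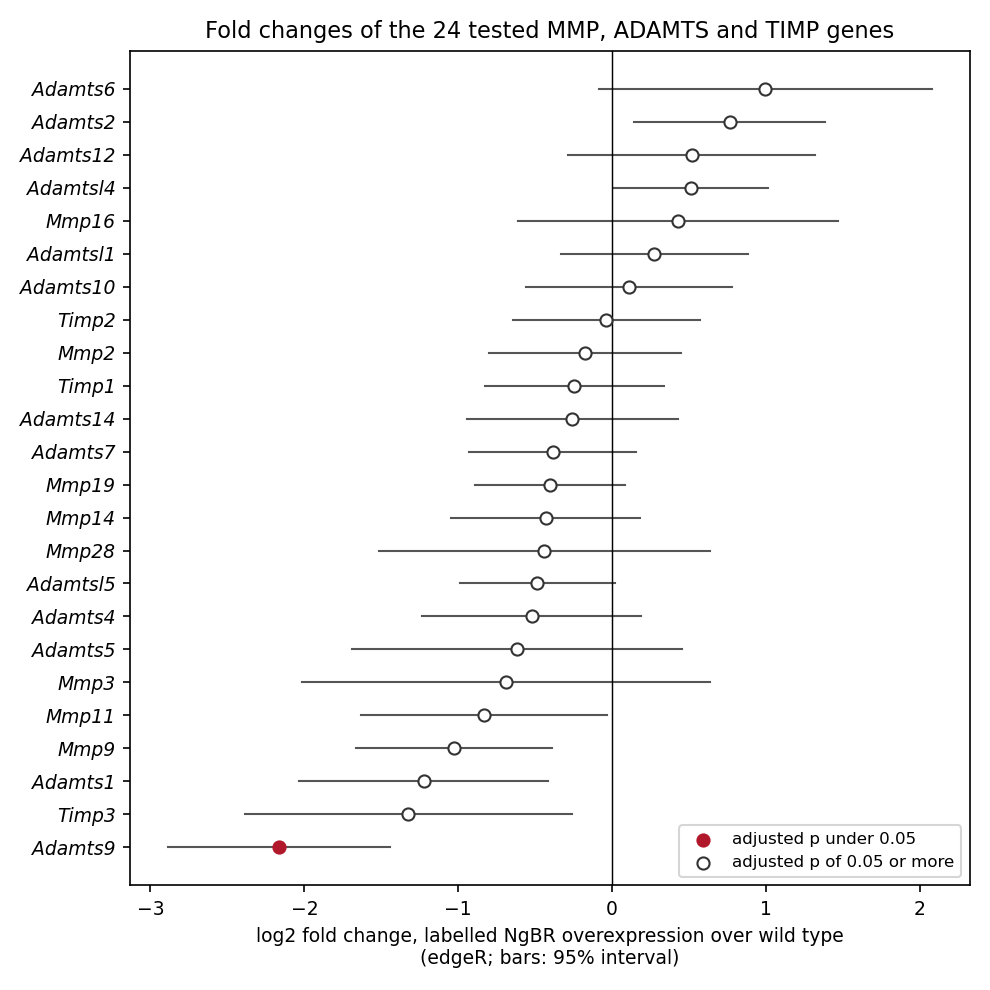
Log2 fold change, NgBR-labelled over wild type, of the 24 tested genes with 95% intervals from edgeR, ordered by size. The filled point is Adamts9 at -2.16, the open points are genes with an adjusted p of 0.05 or more, and 17 of the 24 points lie left of 0.

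Of the 7 ADAMTS genes listed as cleaving proteoglycans, 4 were tested. All 4 had a negative log2 fold change, as did 51.3% of all tested genes, and 1 of the 4 was called. The others were below the filter. Adamts15 had 3, 2 and 1 counts in NgBR-labelled libraries and 1, 7 and 2 in wild type. Adamts8 had 0 in NgBR-labelled libraries and 0, 3 and 1 in wild type, and Adamts20 had 0, 0 and 1 in NgBR-labelled libraries and 0 in wild type. Adamts1 and Adamts5 encode proteases that cleave aggrecan and versican, and they are neighbours on chromosome 16, both on the minus strand and 53059 bases apart (Adamts1 at chr16:85793827-85803113, Adamts5 at chr16:85856173-85901828). Adamts1 was at 43.1, 87.0 and 49.2 CPM in NgBR-labelled libraries and 109.8, 204.6 and 104.3 CPM in wild type, and no NgBR-labelled library reached the lowest wild-type library. The means were 59.7 ± 23.8 CPM in NgBR-labelled libraries and 139.6 ± 56.4 CPM in wild type (SD, n = 3 each). The log2 fold change, -1.22 with an SE of 0.36 (95% interval -2.03 to -0.41), missed the threshold in edgeR's quasi-likelihood test, with an adjusted p of 0.143, and passed it in DESeq2 (adjusted p = 0.0373). Over all settings its adjusted p ran from 0.00204 to 0.429.

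Adamts5 was at 99.0, 313.2 and 90.2 CPM in NgBR-labelled libraries and 240.4, 341.9 and 191.0 CPM in wild type. NgBR-labelled library 2 lay inside the wild-type range and the other NgBR-labelled libraries lay below it. The log2 fold change was -0.62 (SE 0.48) with an adjusted p of 0.743 in edgeR's test, and -1.45 without NgBR-labelled library 2. Adamts4, also an aggrecan-cleaving protease, was at 10.9, 23.0 and 11.8 CPM in NgBR-labelled libraries and 22.1, 19.1 and 24.8 CPM in wild type, with a log2 fold change of -0.52 (SE 0.31, adjusted p = 0.628, edgeR). It showed the same layout, with library 2 of the NgBR-labelled group inside the wild-type range. With both libraries numbered 2 left out, the log2 fold change was -1.19 for Adamts5 (adjusted p = 0.0205, edgeR), -1.04 for Adamts4 (adjusted p = 0.0282, edgeR) and -1.22 for Adamts1 (adjusted p = 0.0109, edgeR). That fit called 581 of 12833 tested genes, 263 of them lower, against 429 of 12651 with all 6 libraries, 171 of them lower. Adamts4 was singled out after its values were seen.

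Across the whole table, the libraries numbered 2 of both groups lay on 1 side of the second principal component and the others on the other. This component held 28.6% of variance, beside 46.5% for the component that separated the groups. It placed NgBR-labelled library 2 at -52.0 and wild-type library 2 at -35.0. NgBR-labelled libraries 1 and 3 were at 5.27 and 38.5, and wild-type libraries 1 and 3 at 17.7 and 25.5. For each library, the deviation of a gene from its mean over all 6 libraries was rank-correlated with exonic length across 12589 genes. NgBR-labelled libraries 1, 2 and 3 gave 0.0761, 0.360 and -0.473. Wild-type libraries 1, 2 and 3 gave -0.217, 0.254 and -0.294. This mean spans both groups, so the correlations mix the group difference with the spread inside a group. Genes are not independent replicates, and these values describe the libraries. The part of the libraries numbered 2 in the values of Adamts1, Adamts4, Adamts5 and Timp3 was tested only by leaving those libraries out.

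None of the procollagen N-proteinases was called by edgeR, DESeq2 or limma-voom, and 1 of the 2 tested had an unadjusted p under 0.05. Adamts2, which removes the amino-terminal propeptide of fibrillar procollagens, was at 218.3, 326.1 and 172.6 CPM in NgBR-labelled libraries and 154.5, 140.7 and 127.1 CPM in wild type (ENSMUSG00000036545, chr11:50602084-50807573, plus strand). Every NgBR-labelled library was above every wild-type library. Its mean was 239 ± 78.8 CPM in NgBR-labelled libraries and 140.7 ± 13.7 CPM in wild type (SD, n = 3 each). The log2 fold change was 0.76, with an SE of 0.28 and a 95% interval of 0.14 to 1.39, and missed the threshold (adjusted p = 0.272, edgeR's quasi-likelihood test). Adamts14, with the same activity, was at 36.9, 25.9 and 28.3 CPM in NgBR-labelled libraries and 26.4, 53.0 and 29.6 CPM in wild type, with overlapping ranges. Its log2 fold change of -0.26 (adjusted p = 0.862, edgeR) was positive without wild-type library 2 (0.12) and with both libraries numbered 2 left out (0.21). Adamts14 and Mmp3 were given per library after their values were seen. Adamts3, the third protease of this kind, had no counts.

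The remaining tested ADAMTS genes gave no call. Adamts7, which cleaves cartilage oligomeric matrix protein, was at 42.8, 67.9 and 43.0 CPM in NgBR-labelled libraries and 64.0, 69.9 and 67.2 CPM in wild type, with overlapping ranges (log2 fold change -0.39, adjusted p = 0.646, edgeR). Adamts12, its closest relative, spanned 19.7 to 52.4 CPM in NgBR-labelled libraries and 18.9 to 26.6 CPM in wild type. Adamts10, a fibrillin-binding protease, spanned 12.8 to 19.3 CPM in NgBR-labelled libraries and 10.5 to 19.6 CPM in wild type. Its relative Adamts6 spanned 2.10 to 8.60 CPM in NgBR-labelled libraries and 1.97 to 2.87 CPM in wild type, with a log2 fold change of 0.996 (SE 0.48, adjusted p = 0.482, edgeR) that was 0.27 without NgBR-labelled library 2. The ranges of Adamts12, Adamts10 and Adamts6 overlapped between the groups.

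Among the ADAMTS-like genes, Adamtsl4, whose protein binds fibrillin microfibrils, was at 22.9, 25.2 and 25.9 CPM in NgBR-labelled libraries and 16.8, 14.6 and 20.4 CPM in wild type. Adamtsl5 was at 23.6, 20.2 and 28.8 CPM in NgBR-labelled libraries and 32.0, 37.4 and 32.3 CPM in wild type. The ranges of both genes were separate, in opposite directions, with log2 fold changes of 0.51 (SE 0.22, adjusted p = 0.425, edgeR) for Adamtsl4 and -0.49 (SE 0.22, adjusted p = 0.454, edgeR) for Adamtsl5. Adamtsl1 averaged 9.71 ± 2.21 CPM in NgBR-labelled libraries and 8.03 ± 1.05 CPM in wild type (SD, n = 3 each).

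Of the gelatinases, Mmp2 was abundant and Mmp9 was not. Mmp2 was at 540.5, 857.0 and 640.8 CPM in NgBR-labelled libraries and 727.5, 835.0 and 740.2 CPM in wild type, with overlapping ranges and a log2 fold change of -0.18 (95% interval -0.80 to 0.45, adjusted p = 0.912, edgeR's quasi-likelihood test). Mmp9 (ENSMUSG00000017737, chr2:164940780-164955850, plus strand) was at 6.03, 6.23 and 5.44 CPM in NgBR-labelled libraries and 9.93, 15.99 and 10.2 CPM in wild type. Its NgBR-labelled libraries lay close together and under every wild-type library. The mean was 5.90 ± 0.409 CPM in NgBR-labelled libraries and 12.1 ± 3.42 CPM in wild type (SD, n = 3 each), and the log2 fold change, -1.03 with an SE of 0.28 (95% interval -1.67 to -0.39), missed the threshold in edgeR's test (adjusted p = 0.110) and passed it in DESeq2 (adjusted p = 0.0436), with adjusted p from 0.0436 to 0.270 over all settings.

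Mmp14, the membrane-anchored protease that activates the Mmp2 precursor on the cell surface, was at 320.5, 472.2 and 361.7 CPM in NgBR-labelled libraries and 453.7, 633.3 and 471.5 CPM in wild type (chr14:54431612-54445364, plus strand). NgBR-labelled library 2 reached the lower wild-type libraries, and the log2 fold change was -0.43 (SE 0.27, adjusted p = 0.647, edgeR). Mmp19 was at 49.2, 67.9 and 56.1 CPM in NgBR-labelled libraries and 80.2, 67.4 and 81.6 CPM in wild type (log2 fold change -0.40, adjusted p = 0.559, edgeR). Its exons share 22.3% of their length with Tmem198b on the opposite strand, which had 98 to 177 counts in NgBR-labelled libraries and 276 to 595 in wild type. The other tested MMP genes overlapped between the groups. Mmp11, a stromelysin by name, spanned 18.7 to 31.0 CPM in NgBR-labelled libraries and 31.0 to 72.7 CPM in wild type (log2 fold change -0.83, adjusted p = 0.405, edgeR). Mmp28 spanned 7.16 to 11.5 CPM in NgBR-labelled libraries and 7.25 to 25.02 CPM in wild type. Mmp16, a membrane-type enzyme, spanned 1.24 to 4.21 CPM in NgBR-labelled libraries and 1.72 to 2.74 CPM in wild type, and had the only positive log2 fold change among the 8 tested MMP genes (0.43, adjusted p = 0.841, edgeR).

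None of the inhibitors was called. By edgeR's test 0 of 3 tested TIMP genes had an adjusted p under 0.05 and 1 had an unadjusted p under 0.05, and DESeq2 and limma-voom called 0. Timp2, which also bridges the Mmp2 precursor to Mmp14, was at 1217, 1075 and 1208 CPM in NgBR-labelled libraries and 1285, 1022 and 1286 CPM in wild type (chr11:118301069-118355740, minus strand). The groups overlapped fully, and the log2 fold change of -0.04 had a 95% interval of -0.64 to 0.57 (adjusted p = 0.989, edgeR). Timp1 was at 74.0, 66.8 and 98.8 CPM in NgBR-labelled libraries and 115.5, 71.1 and 97.5 CPM in wild type, also overlapping (log2 fold change -0.25, SE 0.26, adjusted p = 0.831, edgeR).

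Timp3, the matrix-bound inhibitor with the widest range of targets, was at 215.0, 196.5 and 154.1 CPM in NgBR-labelled libraries and 267.3, 885.5 and 263.5 CPM in wild type (chr10:86300372-86349506, plus strand). All NgBR-labelled libraries lay below all wild-type libraries, and wild-type library 2 lay far above the others. The mean of 188.5 ± 31.2 CPM in NgBR-labelled libraries stood against 472.1 ± 358 CPM in wild type (SD, n = 3 each). The log2 fold change was -1.32 with an SE of 0.47 (95% interval -2.39 to -0.26), at an adjusted p of 0.263 in edgeR's test. Without wild-type library 2 the log2 fold change was -0.49 (adjusted p = 0.529, edgeR). With no filter on low counts it passed the threshold (-1.37, adjusted p = 0.0316, edgeR), and over all settings its adjusted p ran from 0.0316 to 0.529. Exons of Timp3 overlap those of Syn3 on the opposite strand over 21.3% of the Timp3 exonic length, and Syn3 had 3, 7 and 4 counts in NgBR-labelled libraries and 5, 19 and 4 in wild type.

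**Figure D3:**
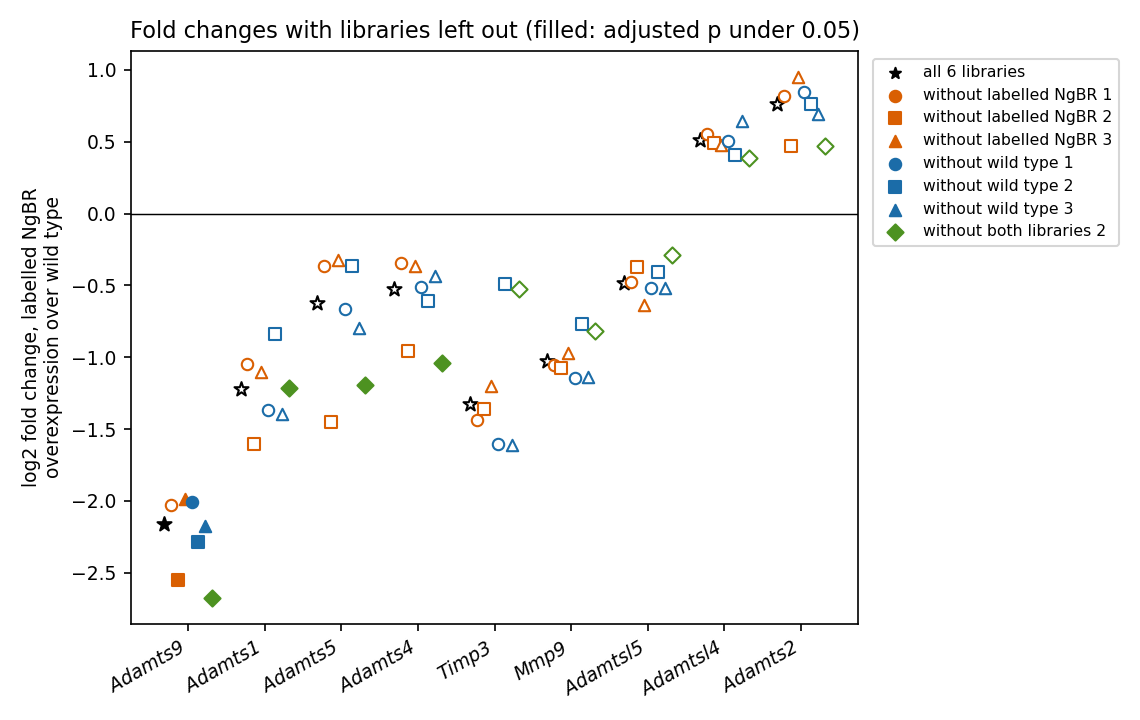
Log2 fold change, NgBR-labelled over wild type, of 9 genes with all 6 libraries (stars), with each library left out in turn and with both libraries numbered 2 left out (diamonds), filled where the adjusted p was under 0.05. With 1 library left out the value of Adamts9 stayed between -2.55 and -1.99, that of Adamts1 between -1.60 and -0.84, and that of Timp3 moved to -0.49 when wild-type library 2 was left out.

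Timp4 was at the edge of detection, with 0, 1 and 1 counts in NgBR-labelled libraries and 15, 11 and 8 in wild type. The depth-corrected ratio of NgBR-labelled to wild-type counts was 0.208, with an exact 95% interval of 0.0242 to 0.809 that covers counting error only. Mmp24, a membrane-type MMP, had 0, 0 and 2 counts in NgBR-labelled libraries and 18, 7 and 13 in wild type, a ratio of 0.186 (0.0217 to 0.718). It shares 13.6% of its exonic length with BC029722 on the opposite strand, which had 207 to 374 counts in NgBR-labelled libraries and 513 to 1147 in wild type. Mmp13, the main rodent collagenase, had 6, 2 and 0 counts in NgBR-labelled libraries and 1, 4 and 3 in wild type, a ratio of 3.53 (1.15 to 10.8) in the other direction. Adamts16 had 7, 5 and 4 counts in NgBR-labelled libraries and 16, 10 and 4 in wild type, a ratio of 1.88 (0.958 to 3.56). The other 12 genes below the filter had at most 20 counts in any library: Mmp8, Mmp10, Mmp15, Mmp17, Mmp21, Mmp23, Adamts8, Adamts13, Adamts15, Adamts20, Adamtsl2 and Adamtsl3. Of these, Adamts13, which cleaves von Willebrand factor, had 1, 3 and 0 counts in NgBR-labelled libraries and none in wild type.

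Levels between genes were compared per length, as TPM computed from the counts and exonic lengths. Timp2 headed the family at 1126 ± 76.2 TPM in NgBR-labelled libraries and 1157 ± 53.9 TPM in wild type, followed by Mmp2 at 776 ± 287 TPM in NgBR-labelled libraries and 868 ± 154 TPM in wild type. The ranges of these 2 genes overlapped in NgBR-labelled libraries and not in wild type. Timp1 came next, at 335 ± 37.6 TPM in NgBR-labelled libraries and 398.5 ± 59.1 TPM in wild type, and then Mmp14, at 248 ± 83.6 TPM in NgBR-labelled libraries and 335 ± 98.4 TPM in wild type (SD, n = 3 each). The ranges of Timp1 and Mmp14 overlapped within each group, and their order turned when the longest transcript was used as the length. Below these 4 genes the order differed between the groups. In NgBR-labelled libraries Adamts2 (99.7 ± 46.5 TPM) and Timp3 (88.2 ± 21.5 TPM) came next, and in wild type Timp3 (231 ± 197 TPM) and Adamts1 (102 ± 52.1 TPM), with Adamts2 at 57.1 ± 6.76 TPM at rank 10. The ranges of Adamts2 and Timp3 overlapped in NgBR-labelled libraries, where the longest transcript as length turned their order, and those of Timp3 and Adamts1 overlapped in wild type.

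All 51 genes together took 0.292%, 0.369% and 0.319% of counts in NgBR-labelled libraries and 0.368%, 0.459% and 0.379% in wild type, with ranges that met at NgBR-labelled library 2 and wild-type library 1. Within that total, MMP genes took 31.6% to 38.3% in NgBR-labelled libraries and 35.2% to 36.8% in wild type, and TIMP genes 35.4% to 49.98% in NgBR-labelled libraries and 43.2% to 44.8% in wild type. ADAMTS genes took 14.4% to 24.7% in NgBR-labelled libraries and 16.7% to 19.4% in wild type. The class shares overlapped between the groups. Shares of single genes were computed only for the most abundant members, Adamts9 and Mmp9 not among them, and those of 3 did not overlap. Adamts2 took 7.17% ± 1.51 of the family's counts in NgBR-labelled libraries and 3.55% ± 0.537 in wild type, and Adamts1 took 1.78% ± 0.463 in NgBR-labelled libraries and 3.41% ± 0.911 in wild type (SD, n = 3 each). Timp3 took 5.02% to 7.14% in NgBR-labelled libraries and 7.15% to 19.3% in wild type.

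**Figure D4:**
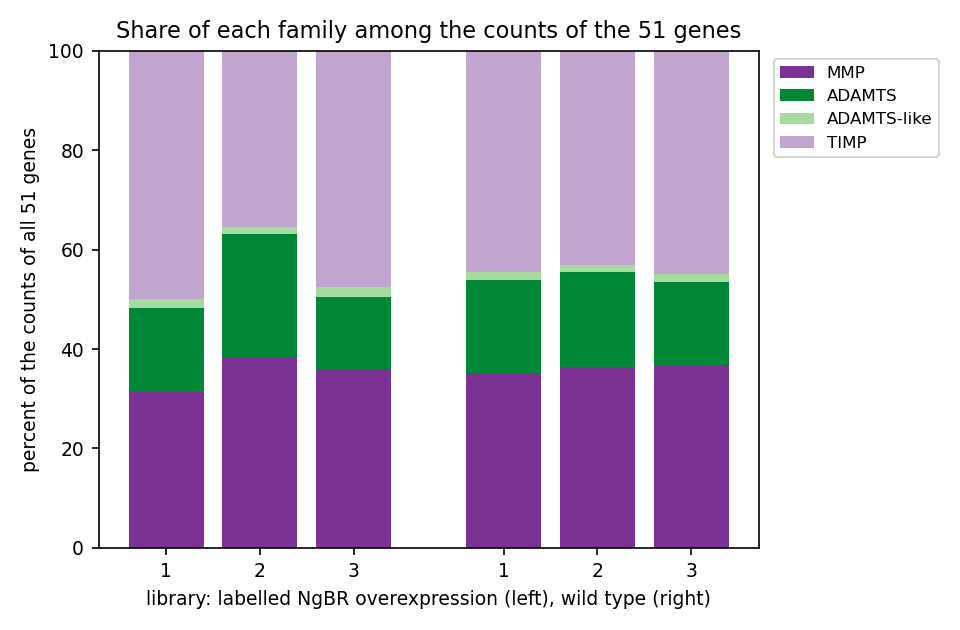
Share of the counts of the 51 genes taken by the MMP, ADAMTS, ADAMTS-like and TIMP classes, in percent, with 1 stacked bar per library and NgBR-labelled libraries left of wild type. The MMP and TIMP classes make up most of every bar, and NgBR-labelled library 2 has the smallest TIMP share (35.4%) and the largest ADAMTS share (24.7%) of the 6 libraries.

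The summed TPM of the TIMP genes was 1529, 1632 and 1488 in NgBR-labelled libraries and 1723, 1900 and 1735 in wild type, without overlap, although no TIMP gene was called. Ratios within a library need no scaling between libraries. The summed TPM of MMP and ADAMTS genes over that of TIMP genes was 0.716, 1.28 and 0.767 in NgBR-labelled libraries and 0.849, 1.17 and 0.889 in wild type, with overlapping ranges and the libraries numbered 2 highest in both groups. Mmp9 over Mmp2 was 0.0106, 0.00692 and 0.00809 in NgBR-labelled libraries and 0.0130, 0.0182 and 0.0132 in wild type, without overlap. Adamts9 over Adamts5 was 0.0386, 0.0229 and 0.0410 in NgBR-labelled libraries and 0.109, 0.0528 and 0.114 in wild type, also without overlap. Adamts9 over Adamts1 overlapped between the groups (0.0369 to 0.0436 in NgBR-labelled libraries and 0.0433 to 0.118 in wild type), as did Adamts9 over Timp3 (0.0134 to 0.0275 in NgBR-labelled libraries and 0.0154 to 0.0742 in wild type). A ratio shows unequal change of its parts, not which part moved.

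Genes that act on or beside these proteases gave 4 calls among 63 tested (6.35%, beside 3.39% of all tested genes, edgeR). All 4 were higher in the NgBR-labelled libraries. Of these, Adam22 had only 5, 8 and 11 counts in wild-type libraries and Fap only 3, 4 and 4. Both passed the filter on low counts only through the NgBR-labelled libraries, so that the filter favoured a call in that direction. The list of ADAM genes, mostly membrane-anchored relatives of the ADAMTS proteases, also held other metalloproteases such as Bmp1, which is no ADAM gene. In that list, 2 of 10 tested genes rose, both of them ADAM genes. Adam12, which occurs in a membrane and a secreted form, was at 26.1, 20.4 and 17.3 CPM in NgBR-labelled libraries and 10.3, 10.6 and 8.12 CPM in wild type (log2 fold change 1.14, SE 0.25, adjusted p = 0.0444, edgeR). Adam22, a member without protease activity, was at 1.54, 1.78 and 1.15 CPM in NgBR-labelled libraries and 0.143, 0.271 and 0.331 CPM in wild type (log2 fold change 2.56, SE 0.50, adjusted p = 0.0248, edgeR). Both calls were lost in all 6 fits that left out a library, with adjusted p of 0.056 to 0.221 for Adam12 and 0.0606 to 0.129 for Adam22 in edgeR's test.

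Among cathepsins and other matrix proteases, edgeR called 2 of 9 tested genes higher and 0 lower, and the median log2 fold change of the 9 was 0.75. DESeq2 called 4 genes of this list and limma-voom 2. Hpse and Dpp4, of the same list, were below edgeR's filter and are named after their values were seen. Neither had a count in NgBR-labelled libraries, while wild type had 26, 14 and 27 counts of Hpse and 4, 5 and 2 of Dpp4. Ctsk, a lysosomal collagenase best known from osteoclasts, was at 9.26, 4.75 and 13.1 CPM in NgBR-labelled libraries and 1.49, 2.20 and 1.44 CPM in wild type (log2 fold change 2.40, SE 0.41, adjusted p = 0.0134, edgeR). Fap, a surface serine protease of activated fibroblasts, was at 0.841, 0.988 and 1.81 CPM in NgBR-labelled libraries and 0.0858, 0.135 and 0.120 CPM in wild type (log2 fold change 3.38, SE 0.56, adjusted p = 0.011, edgeR). For both genes every NgBR-labelled library lay above every wild-type library, which the filter favoured for Fap. The call held in 3 of 6 fits with a library left out for Ctsk and in 4 of 6 for Fap.

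The lists closest to the function of the family gave no call with edgeR. Of the genes that regulate MMPs, 0 of 11 tested were called, 3 had an unadjusted p under 0.05 and DESeq2 called 2, Itgb3 and A2m. Lrp1, the endocytic receptor that clears several MMPs and TIMPs and the gene of this list with the highest mean CPM over the 6 libraries, had a log2 fold change of -0.35 (adjusted p = 0.896, edgeR). Of the ADAMTS substrates and the enzymes that glycosylate thrombospondin repeats, 0 of 7 tested were called, 1 had an unadjusted p under 0.05 and DESeq2 called 1, Dcn. The proteoglycan gene Bgn, with the highest mean CPM of these 7 genes, had a log2 fold change of -0.02 (adjusted p = 0.993, edgeR). Limma-voom called 0 in both lists. A2m, a plasma inhibitor that traps proteases of many kinds, was below edgeR's filter and is named after its values were seen: it had 1, 35 and 22 counts in NgBR-labelled libraries and 0 in every wild-type library. The decorin gene Dcn, also named after its values were seen, averaged 331 ± 144 CPM in NgBR-labelled libraries and 812.5 ± 111 CPM in wild type (SD, n = 3 each), without overlap, and its log2 fold change of -1.29 missed the threshold (adjusted p = 0.118, edgeR) and passed it in DESeq2 (adjusted p = 0.00955).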

How the data were processed

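Processed files of 6 libraries were analysed. The authors deposited raw, whole-number counts for each gene. The submitters' processing notes name build mm10, the aligner HISAT2 (2.0.5), the counter featureCounts (1.5.0-p3) and DESeq2. Per the labels' protocols, 1.5 ug of total RNA entered a SMARTer library kit. No annotation release, strand setting or filter is given in the sources used here.

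Genes that passed edgeR's filterByExpr were fitted with edgeR 4.0.16 (R 4.3.3), with TMM factors, the quasi-likelihood test and Benjamini-Hochberg adjustment over all 12651 genes tested, and called at an adjusted p under 0.05. The standard error is the log2 fold change divided by the root of its F statistic. DESeq2 1.42.0 and limma-voom 3.58.1 were alternatives, as were another filter, other scalings, thinned counts, a replicate block and libraries left out. TPM used union exonic lengths from GENCODE release M21, which covered all 51 genes and 97.8% of the table. The fit was also run on simulated counts, drawn independently for each library. Such counts cannot show how the fit behaves with structure shared between libraries, such as that of the libraries numbered 2. Plots used matplotlib 3.10.9 and tables pandas 2.3.3. Depth was 7369961 to 35511769 counts per library, so that 1 count was worth 0.0286 to 0.140 CPM, and intervals on counts cover counting error only.

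The members and lists were chosen with earlier results of these data known. Values were given per library for called genes, the TIMP genes, the 10 most abundant members and tested members whose group ranges did not overlap, and, in the related lists, for called genes, with the gene of highest mean CPM otherwise. Adamts4, Adamts14, Mmp3 and genes below the filter were added after their values were seen. Related lists covered MMP regulators, ADAM genes with other metalloproteases, cathepsins and other proteases, ADAMTS substrates, fibrillin microfibrils and transcription factors of MMP promoters. A further list of related genes is not reported here.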

Additional observations from a re-analysis of the deposited data

How the results depend on the processing

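Of all genes, 429 were called by edgeR, against 715 with DESeq2, 688 with no filter on low counts and 719 with the replicate block. The count was 225 to 374 with a library left out and 581 with both libraries numbered 2 left out. Of the MMP, ADAMTS and TIMP genes, 1 was called lower by edgeR with all 6 libraries (Adamts9). The count of these genes was 3 with DESeq2 (with Adamts1 and Mmp9) and 3 with no filter (with Timp3 and Adamts1). It was 2 with the replicate block (with Adamts1) and 0 to 1 with 1 library left out. With both libraries numbered 2 left out it was 4 (with Adamts1, Adamts4 and Adamts5). In all related lists, the unreported list included, 5 genes were called, against 10 with DESeq2, 12 with no filter, 2 with counts thinned to equal depth, 9 with the replicate block and 0 to 3 with a library left out. No called gene changed sign. Among the uncalled genes, the log2 fold change with a library left out crossed 0 for Timp2 (-0.138 to 0.0266), Adamts14 (-0.44 to 0.12), Adamts12 (-0.0108 to 0.782), Adamts10 (-0.11 to 0.30), Mmp28 (-0.74 to 0.36), Bgn (-0.0851 to 0.0781) and Fosl2 (-0.52 to 0.0398). With both libraries numbered 2 left out it was 0.21 for Adamts14, -0.00651 for Adamts12, -0.17 for Adamts10 and 0.23 for Mmp28. The cause was not tested. For the 24 tested genes of the family, 382 of 403 refitted values kept their direction and side of the threshold. With 1 of the 24 called, this mostly counts uncalled genes that stayed uncalled, and it does not measure how far a value moved. With a library left out, the log2 fold change ran from -1.61 to -0.49 for Timp3 and from -1.45 to -0.32 for Adamts5, without a call. The labels give the libraries numbers and state no pairing. Deviations from the group means correlated at 0.0147, 0.341 and 0.434 between the libraries numbered 1, 2 and 3. Between libraries of unlike number they correlated at -0.3995 to 0.1889. NgBR-labelled library 1 correlated about equally with wild-type library 3 (0.0174) and wild-type library 1. Whether the number marks a shared batch was not tested. The smaller depth of the NgBR-labelled libraries limits what is seen of genes near 0.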

Other observations

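Other gene sets linked to the family gave no call with edgeR's quasi-likelihood test. Of 17 tested transcription factors known from MMP promoters (AP-1, ETS and related factors), 0 were called, 2 had an unadjusted p under 0.05, and DESeq2 and limma-voom called 0. Fosl2, with the highest mean CPM of them over the 6 libraries (not corrected for length), had a log2 fold change of -0.13 (adjusted p = 0.947, edgeR). Of 9 tested genes of fibrillin microfibrils, to which ADAMTS-like proteins bind, 0 were called, 0 had an unadjusted p under 0.05, and DESeq2 and limma-voom called 0. Ltbp3, with the highest mean CPM of these over the 6 libraries, had a log2 fold change of 0.55 (adjusted p = 0.470, edgeR).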
